A study of Mus musculus with 18 samples.

Results

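The tumor necrosis factor (TNF) superfamily was followed here through 10 genes, 6 of them ligands (Tnf, Lta, Ltb, Tnfsf10, Tnfsf11 and Tnfsf13b) and 4 of them receptors (Tnfrsf1a, Tnfrsf1b, Tnfrsf11b and Ltbr), out of 47729 genes in the count table. They were taken as named genes of the family, with no value of the data in the rule, and each symbol matched 1 row of the table. RNA from the whole colon of 9 mice was sequenced. The 3 naive WT mice (1 to 3) were wild type and are called naive here because their treatment label reads Control, although the protocol text given with every sample, theirs included, describes the AOM-DSS course below. The 3 WT CAC mice (4 to 6) were wild type and received azoxymethane (AOM, a colon carcinogen) once at 10 mg/kg followed by 3 cycles of 2.5% dextran sulfate sodium (DSS, which injures the epithelium) in water, the AOM-DSS model of colitis-associated cancer (CAC). The 3 Cldn2TG CAC mice (7 to 9, Claudin-2TG in the labels) received the same AOM-DSS course and carried a Cldn2 transgene under the Villin promoter, which is active in intestinal epithelium. The background strain was C57BL/6 throughout, and claudin-2 is a tight junction protein. Untreated transgenic mice were not analysed here, so an effect of the transgene without AOM-DSS cannot be told apart from one during it.

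Ligands of this family are mostly made as trimers on the cell surface, and they bind receptors that recruit TRAF adaptors or death domain proteins and thereby switch on NF-κB or cell death. TNF and lymphotoxin-α act through TNFR1 (Tnfrsf1a), which most cells carry, and TNFR2 (Tnfrsf1b), which is mainly found on leukocytes and endothelium. The lymphotoxin-β heterotrimer acts through the LTβ receptor (Ltbr) and is known in the gut for building lymphoid follicles, while RANKL (Tnfsf11) acts through RANK (Tnfrsf11a), is blocked by the soluble decoy osteoprotegerin (OPG, Tnfrsf11b), and drives the formation of M cells over those follicles.

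Ltb, Tnf and Lta lie side by side on chromosome 17 of GRCm38. Ltb spans chr17:35194439-35196320 on the plus strand, Tnf chr17:35199381-35202007 on the minus strand and Lta chr17:35203165-35205351 on the minus strand. Gaps of 3060 bases between Ltb and Tnf and of 1157 bases between Tnf and Lta separate them. Ltbr (chr6:125306571-125313885, minus strand) and Tnfrsf1a (chr6:125349362-125362484, plus strand) are 35476 bases apart. The other genes are at chr3:27317028-27342427 (Tnfsf10, plus strand), chr4:145213463-145246870 (Tnfrsf1b, minus strand), chr8:10006467-10039072 (Tnfsf13b, plus strand), chr14:78277445-78308043 (Tnfsf11, minus strand) and chr15:54250619-54278484 (Tnfrsf11b, minus strand). The exons of the 10 genes overlap no exon of another gene in the table on either strand.

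RefSeq (GRCm38.p6) gave promoter windows for 9 of the 10 genes, all but Tnfrsf11b. The 250 bases before the start are printed for the neighbors Ltb and Tnf, which differed in how evenly they were expressed among the WT CAC mice, and for Tnfsf11 and Tnfrsf1b, a ligand and a receptor that were lower in Cldn2TG CAC mice. The windows lie at chr17:35194257-35194506 (Ltb, plus strand), chr17:35202008-35202257 (Tnf, minus strand), chr14:78308044-78308293 (Tnfsf11, minus strand) and chr4:145246871-145247120 (Tnfrsf1b, minus strand), each written 5′ to 3′ along its gene. Capitals mark matches to 4 motifs searched on both strands.
Ltb: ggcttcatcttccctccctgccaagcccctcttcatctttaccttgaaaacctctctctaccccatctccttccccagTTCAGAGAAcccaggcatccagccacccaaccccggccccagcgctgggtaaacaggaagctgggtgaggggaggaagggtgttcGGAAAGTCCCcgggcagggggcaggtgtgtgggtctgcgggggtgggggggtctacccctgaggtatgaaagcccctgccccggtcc
Tnf: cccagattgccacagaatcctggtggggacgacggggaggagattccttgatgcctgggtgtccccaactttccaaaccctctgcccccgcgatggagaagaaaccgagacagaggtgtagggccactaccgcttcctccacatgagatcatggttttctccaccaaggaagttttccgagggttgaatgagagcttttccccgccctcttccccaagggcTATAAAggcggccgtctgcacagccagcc
Tnfsf11: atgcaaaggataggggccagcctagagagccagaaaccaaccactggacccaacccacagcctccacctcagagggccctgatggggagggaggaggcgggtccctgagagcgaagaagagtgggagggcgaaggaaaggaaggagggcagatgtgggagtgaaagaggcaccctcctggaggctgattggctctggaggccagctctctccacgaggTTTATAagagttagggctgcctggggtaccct
Tnfrsf1b: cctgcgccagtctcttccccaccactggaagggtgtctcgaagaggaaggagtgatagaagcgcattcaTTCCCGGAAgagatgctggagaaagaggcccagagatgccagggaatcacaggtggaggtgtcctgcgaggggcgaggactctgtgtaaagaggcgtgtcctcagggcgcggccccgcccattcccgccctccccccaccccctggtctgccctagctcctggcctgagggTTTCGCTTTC

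In these letters the NF-κB consensus matched once among the windows of the 9 genes, in Ltb at 87 bases before the start on the other strand, and 4.51% of 32851 promoter windows held it. The TATA box (TATAAA) stood 29 bases before the start of Tnf and, on the other strand, 32 bases before that of Tnfsf11, and 13.6% of windows held one. Lta had one 167 bases before its start. The GAS element (TTC, any 3 bases, then GAA) was present in Tnfrsf1b at 181 bases and in Ltb at 172 bases before the start, in Tnfrsf1a and in Lta, against 8.30% of windows. The interferon-stimulated response element (TTTC, any 2 bases, then TTTC) stood 10 bases before the start of Tnfrsf1b and 16 bases before 1 start of Tnfsf13b, against 3.44% of windows. Each GAS match occupies the same place on both strands, and no marked match overlapped a match to another motif. These are matches of letters and were not tested as binding sites.

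Libraries held 14142711 to 22262546 counts on genes. Levels below are CPM, read counts of a gene relative to its library's total scaled by TMM factors over the 9 libraries, and a level set between genes is given as TPM, which also divides by exon length. Fold changes come from edgeR's quasi-likelihood test on the 6 libraries of a comparison, with p-values adjusted by Benjamini-Hochberg over all genes tested, and a gene is called at an adjusted p under 0.05. Shares of all genes called are those of this fit, also where counts from an alternative fit stand beside them. The labels name no animal, so the p-values measure the spread between these libraries. The transgene's own gene, Cldn2, was at 191.6 to 258.3 CPM in naive WT, 121.7 to 135.8 in WT CAC and 208.7 to 248.7 in Cldn2TG CAC mice. Cldn2 was thus higher in Cldn2TG CAC than in WT CAC mice (log2 fold change 0.78 ± 0.12 (SE), adjusted p = 0.0103) a call lost without Cldn2TG CAC mouse 8 or 9 (adjusted p = 0.058 and 0.0597), and was not told apart from its level in naive WT mice (-0.03 ± 0.12, adjusted p = 0.897). Whether reads from the transgene were counted on this row was not tested. Naive WT mouse 1 had Xist at 214.6 CPM and Ddx3y, on the Y chromosome, at 0.149 CPM, while the other 8 mice had Xist at 0.204 CPM or less and Ddx3y at 34.1 to 51.4 CPM. WT CAC mouse 4 also stood apart from mice 5 and 6, as the values below show. Where leaving out either of these mice changes a call of the 10 genes, the value without that mouse is given.

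In the naive colon the 3 membrane receptors stood far above the ligands. Per length, Ltbr was at 167.7 to 173.5 TPM, Tnfrsf1a at 90.5 to 98.7 TPM and Tnfrsf1b at 22.3 to 28.5 TPM, and these ranges did not overlap. Tnfsf10 followed at 4.82 to 11 TPM, Ltb at 1.17 to 7.28 TPM and Tnf at 1.78 to 5.5 TPM, with overlapping ranges. Tnfsf13b (0.812 to 1.83 TPM), Tnfrsf11b (0.403 to 1.08 TPM), Tnfsf11 (0.113 to 1.08 TPM) and Lta (0.0836 to 0.642 TPM) were lowest and each overlapped its neighbor in that order. In WT CAC mice Tnfrsf11b reached 11.7 to 84.6 TPM and overlapped Tnfrsf1b at 24.6 to 85.1 TPM, with Tnfrsf1a at 86.6 to 151.7 TPM and Ltbr at 167.8 to 199.1 TPM above them. In Cldn2TG CAC mice Tnfrsf11b was at 0.604 to 2.21 TPM, below Tnfsf10 at 5.53 to 8.07 TPM.

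Which of these genes changed with AOM-DSS in wild-type mice was asked first. OPG (Tnfrsf11b), the B cell survival factor BAFF (Tnfsf13b) and lymphotoxin-β (Ltb) were higher in WT CAC than in naive WT mice. Of the 10 genes 9 passed the filter on low counts, and 3 were called, each of them higher, where 15.0% of all 15437 genes tested were called and 8.04% were called higher. All 9 log2 fold changes were above 0, with a median of 1.95 against 0.02 over all genes, but Tnfsf11 and Tnfrsf11b had low naive counts and passed the filter through the WT CAC libraries, so this median, and the count in which Tnfrsf11b takes part, are only a description. In 6 of the 10 genes every WT CAC mouse was above every naive WT mouse, an order that 18.9% of the genes tested showed. The same 3 WT CAC libraries enter the next comparison, with Cldn2TG CAC mice.

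In that comparison Tnfsf11, Tnfrsf11b, Ltb and Tnfrsf1b were lower in Cldn2TG CAC than in WT CAC mice. They made up 4 of the 9 genes tested, where 9.54% of 14888 genes were called and 7.35% were called lower. The 9 log2 fold changes were below 0, with a median of -1.55 against 0.01 over all genes, and Tnfsf11 and Ltb passed the filter through the WT CAC libraries, so this median and the count of 4 are again only a description, and just Tnfrsf11b and Tnfrsf1b of the 4 had enough counts in both groups. In 5 of the 10 genes every Cldn2TG CAC mouse was below every WT CAC mouse, an order that 15.2% of the genes tested showed.

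Between Cldn2TG CAC and naive WT mice none of the 8 genes tested was called by edgeR, while 10.0% of 15013 genes were. At an unadjusted p under 0.05 there were 3 of the 8, beside 3896 of the 15013 genes, and DESeq2 called 1 of the 8, Tnfsf13b. Of these 3, Tnfrsf11b passed the filter here only through the Cldn2TG CAC libraries. Tnfsf13b and Ltbr were higher in every Cldn2TG CAC mouse than in every naive WT mouse (15.0% of all genes tested), and Tnfrsf1b was lower in every one (16.4%). The median log2 fold change of the 8 was 0.12, against 0.00 over all genes. Lta and Tnfsf11 did not pass the filter here. Because the tissue is a mixture of cells, fewer cells of a type and less RNA per cell cannot be told apart in any of these differences.

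**Figure D1:**
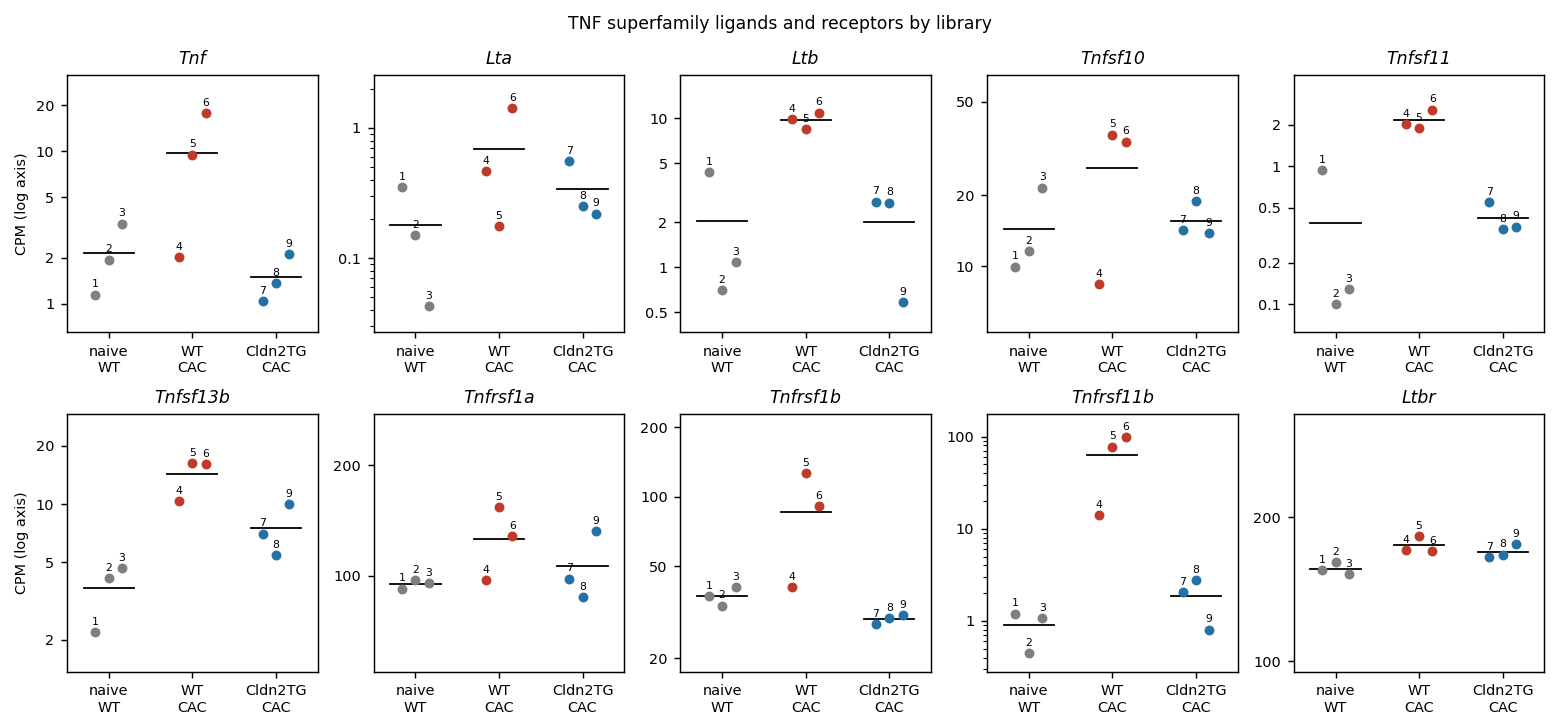
CPM on log axes for the 10 genes, with 1 point per mouse labeled by its number and a line at the group mean. WT CAC mice 4 to 6 form a tight group for Ltb and Tnfsf11, while mouse 4 lies well below mice 5 and 6 for Tnf, Tnfsf10, Tnfrsf1b and Tnfrsf11b.

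**Figure D2:**
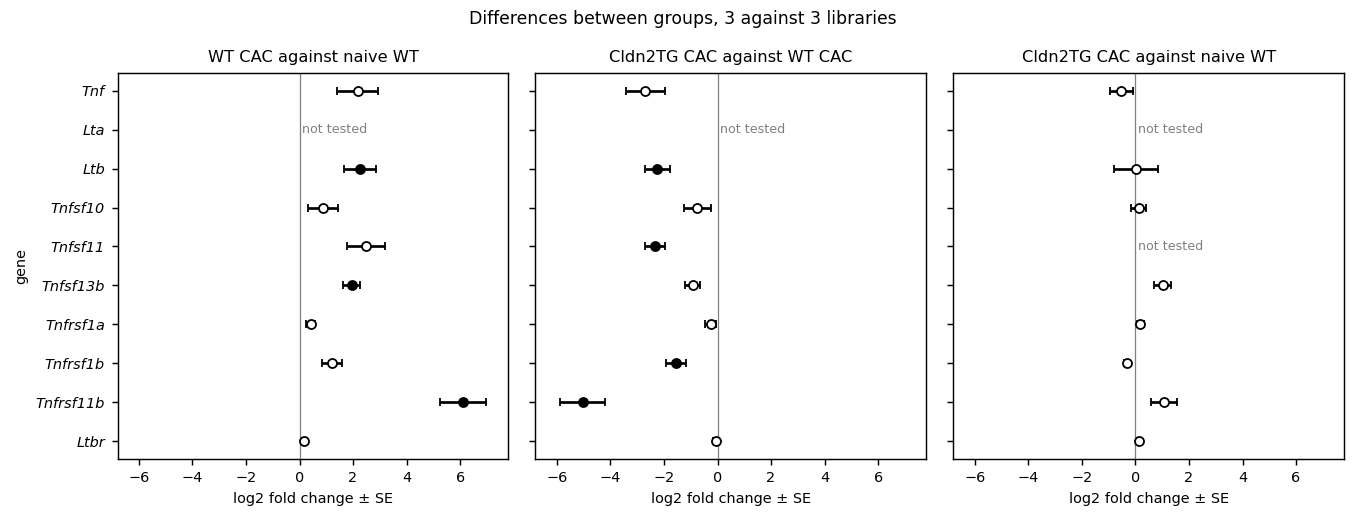
Log2 fold changes with SE bars from edgeR for each comparison of 3 against 3 libraries, with filled points for genes called at an adjusted p under 0.05. Tnfrsf11b lies at 6.11 in the first and -5.03 in the second comparison, and no point is filled in the third.

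Among the ligands, Tnf encodes TNF, the inflammatory cytokine made chiefly by macrophages and T cells. It was at 1.15, 1.95 and 3.36 CPM in naive WT mice 1, 2 and 3, at 2.03, 9.52 and 17.7 CPM in WT CAC mice 4, 5 and 6, and at 1.04, 1.36 and 2.12 CPM in Cldn2TG CAC mice 7, 8 and 9. WT CAC mice 5 and 6 were above the other 7 mice, and mouse 4 lay within the naive range. The difference was 4.5-fold between WT CAC and naive WT mice (log2 fold change 2.17 ± 0.76 (SE), adjusted p = 0.0977) and 6.46-fold between WT CAC and Cldn2TG CAC mice (-2.69 ± 0.75, adjusted p = 0.0695), and neither was called. Without WT CAC mouse 4 both were called, at log2 fold changes of 2.65 (adjusted p = 0.00592) and -3.17 (adjusted p = 0.000397), and DESeq2 called both with all 6 libraries (adjusted p = 0.00601 and 0.00021). The second was also called with all 9 libraries in the fit (adjusted p = 0.0363). Without WT CAC mouse 6 they fell to 1.43 (adjusted p = 0.246) and -1.93 (adjusted p = 0.135). Against naive WT mice, Cldn2TG CAC mice differed by -0.52 ± 0.42 (adjusted p = 0.461).

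Lta encodes lymphotoxin-α and did not pass the filter on low counts in any comparison. Its counts were 7, 3 and 1 in naive WT, 9, 4 and 21 in WT CAC and 8, 5 and 3 in Cldn2TG CAC mice, or 0.043 to 1.43 CPM. The groups overlapped, and a difference was not detectable at this depth. With no filter it was tested and not called in any comparison (adjusted p = 0.212, 0.609 and 0.542), nor was it called in Cldn2TG CAC against WT CAC mice without Cldn2TG CAC mouse 9, when it passed the filter (adjusted p = 0.769).

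Ltb encodes lymphotoxin-β, which anchors lymphotoxin-α at the membrane of lymphocytes. It was at 4.33, 0.702 and 1.08 CPM in naive WT, 9.83, 8.47 and 10.9 CPM in WT CAC and 2.76, 2.72 and 0.586 CPM in Cldn2TG CAC mice. The 3 WT CAC mice lay close together and above the other 6, and naive WT mouse 1 was several times above mice 2 and 3. Ltb was 4.8-fold higher in WT CAC than in naive WT mice (log2 fold change 2.26 ± 0.61, adjusted p = 0.0476) and 4.73-fold lower in Cldn2TG CAC than in WT CAC mice (-2.24 ± 0.46, adjusted p = 0.0216). In the second of these comparisons Ltb passed the filter only through the WT CAC libraries, where it is high, so that fold is a description. The first call held without naive WT mouse 1 (3.43, adjusted p = 0.0119) and was lost without any of the other 5 (adjusted p = 0.0624 without WT CAC mouse 4, 0.0851 without WT CAC mouse 5, and 0.114, 0.115 and 0.142 without WT CAC mouse 6, naive WT mouse 2 and naive WT mouse 3). The second was lost without WT CAC mouse 5 or 6 (adjusted p = 0.0578 and 0.0585) and without Cldn2TG CAC mouse 7 or 8 (0.064 and 0.0783). Processing mattered as well, since the first call was lost with no filter (2.23, adjusted p = 0.126) and the second with all 9 libraries in the fit (-2.24, adjusted p = 0.0541). Cldn2TG CAC mice differed from naive WT mice by 0.02 ± 0.81 (adjusted p = 0.99), so a sizable difference in either direction was not detectable with this SE.

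Tnfsf10 encodes TRAIL, a ligand that triggers apoptosis through death receptors. It was at 9.96, 11.6 and 21.6 CPM in naive WT, 8.37, 36.3 and 33.9 CPM in WT CAC and 14.2, 18.9 and 13.8 CPM in Cldn2TG CAC mice. WT CAC mouse 4 was the lowest of the 9 mice and mice 5 and 6 the highest. The log2 fold changes were 0.87 ± 0.56 for WT CAC against naive WT (adjusted p = 0.327), -0.75 ± 0.50 for Cldn2TG CAC against WT CAC (adjusted p = 0.457) and 0.13 ± 0.28 for Cldn2TG CAC against naive WT mice (adjusted p = 0.818). Without WT CAC mouse 4 the first 2 were called (1.29, adjusted p = 0.0247, and -1.17, adjusted p = 0.00138).

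Tnfsf11 encodes RANKL. Its counts were 19, 2 and 3 in naive WT, 39, 43 and 38 in WT CAC and 8, 7 and 5 in Cldn2TG CAC mice, or 0.946, 0.1 and 0.129, then 2.03, 1.89 and 2.58, then 0.553, 0.352 and 0.366 CPM. As for Ltb, the WT CAC mice were close together and above the other 6, and naive WT mouse 1 was above the other naive mice. Tnfsf11 was 5.07-fold lower in Cldn2TG CAC than in WT CAC mice (log2 fold change -2.34 ± 0.36, adjusted p = 0.00973), and this call was lost without Cldn2TG CAC mouse 8 or 9 (adjusted p = 0.067 and 0.0634). In this comparison and in that of WT CAC with naive WT mice, Tnfsf11 passed the filter only through the WT CAC libraries, where it is high. Its fold changes are thus a description, and with no filter the call here stayed (-2.32, adjusted p = 0.00249). Against naive WT mice, WT CAC mice differed by 2.47 ± 0.70 (adjusted p = 0.0521), which was called without naive WT mouse 1 (4.15, adjusted p = 0.0199), without WT CAC mouse 4 (2.52, adjusted p = 0.0458) and by DESeq2 (2.48, adjusted p = 0.0118). It was also called with no filter (adjusted p = 0.0469), with all 9 libraries in the fit (0.0217) and on lane 2 (0.0192).

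Tnfsf13b encodes BAFF, which keeps B cells and plasma cells alive. It was at 2.19, 4.16 and 4.69 CPM in naive WT, 10.4, 16.2 and 16.1 CPM in WT CAC and 7.05, 5.44 and 10 CPM in Cldn2TG CAC mice. The 3 groups did not overlap, with Cldn2TG CAC mice between the other 2. Tnfsf13b was 3.87-fold higher in WT CAC than in naive WT mice (log2 fold change 1.95 ± 0.32, adjusted p = 0.0129), a call lost without naive WT mouse 2 (2.04, adjusted p = 0.0602). The difference of Cldn2TG CAC from WT CAC mice was -0.93 ± 0.28 (adjusted p = 0.0731) and that from naive WT mice was 1.02 ± 0.31 (adjusted p = 0.0679). Neither was called, whereas DESeq2 called both (adjusted p = 0.0194 and 0.0163), as did edgeR with no filter (0.028 and 0.000485). The difference from WT CAC mice was also called without WT CAC mouse 4 (-1.11, adjusted p = 0.0132), when scaled by library size (-1.04, adjusted p = 0.0443) and on lane 2 (-0.97, adjusted p = 0.0373).

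Of the receptors, Tnfrsf1a (TNFR1) was at 92.1, 97.4 and 95.2 CPM in naive WT, 97, 153.5 and 128.2 CPM in WT CAC and 98.1, 87.5 and 132.3 CPM in Cldn2TG CAC mice. The groups overlapped, and WT CAC mice 5 and 6 and Cldn2TG CAC mouse 9 lay well above the naive range, with Cldn2TG CAC mouse 7 just above it. The log2 fold changes were 0.42 ± 0.17 (adjusted p = 0.127), -0.26 ± 0.21 (adjusted p = 0.555) and 0.17 ± 0.14 (adjusted p = 0.496) in the 3 comparisons. The first was called without WT CAC mouse 4 (0.58, adjusted p = 0.0087).

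Tnfrsf1b (TNFR2) was at 37.2, 33.8 and 40.5 CPM in naive WT, 40.6, 126.8 and 90.8 CPM in WT CAC and 28, 29.8 and 30.7 CPM in Cldn2TG CAC mice. The Cldn2TG CAC mice were below the other 6, and WT CAC mouse 4 was only just above the naive mice. Tnfrsf1b was 2.93-fold lower in Cldn2TG CAC than in WT CAC mice (log2 fold change -1.55 ± 0.38, adjusted p = 0.0462). Without WT CAC mouse 4 this call held (-1.89, adjusted p = 0.000101), and it was lost without any other library, at adjusted p = 0.0905 without WT CAC mouse 5, 0.121 without WT CAC mouse 6, and 0.157, 0.159 and 0.146 without Cldn2TG CAC mouse 7, 8 and 9. It was also lost with no filter (-1.53, adjusted p = 0.182) and on lane 2 (-1.51, adjusted p = 0.0565). The other differences were 1.22 ± 0.38 for WT CAC (adjusted p = 0.0717, and 0.000659 without WT CAC mouse 4) and -0.33 ± 0.11 for Cldn2TG CAC (adjusted p = 0.0861), each against naive WT mice. The first of these was called by DESeq2 (adjusted p = 0.00327) and with all 9 libraries in the fit (0.0298), and the second when scaled by library size (-0.45, adjusted p = 0.035) and on lane 1 (-0.39, adjusted p = 0.0482).

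Tnfrsf11b (OPG) spanned the widest range of the 10 genes. It was at 1.2, 0.451 and 1.08 CPM in naive WT, 14.2, 77.7 and 98 CPM in WT CAC and 2.07, 2.77 and 0.806 CPM in Cldn2TG CAC mice, from counts of 24, 9 and 25, then 274, 1770 and 1441, then 30, 55 and 11. Each WT CAC mouse was above the other 6, and mouse 4 was well below mice 5 and 6. Tnfrsf11b was 69.3-fold higher in WT CAC than in naive WT mice (log2 fold change 6.11 ± 0.86, adjusted p = 0.0119) and 32.6-fold lower in Cldn2TG CAC than in WT CAC mice (-5.03 ± 0.84, adjusted p = 0.0182). In the first of these comparisons Tnfrsf11b passed the filter only through the WT CAC libraries, where it is high, so that fold is a description. The first call was lost without naive WT mouse 2 (5.79, adjusted p = 0.0601). The second was lost without WT CAC mouse 5 (-4.85, adjusted p = 0.0725) and without Cldn2TG CAC mouse 7, 8 or 9 (adjusted p = 0.0744, 0.079 and 0.077), and with no filter (-5.00, adjusted p = 0.0844). Cldn2TG CAC and naive WT mice differed by 1.07 ± 0.47 (adjusted p = 0.184, and 0.0391 with no filter).

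Ltbr was the most even of the 10 genes. It was at 155.1, 161.3 and 152.0 CPM in naive WT, 170.7, 183.0 and 170.1 CPM in WT CAC and 165.2, 167.1 and 175.7 CPM in Cldn2TG CAC mice. Each AOM-DSS mouse was above each naive mouse, by a small amount. The log2 fold changes were 0.17 ± 0.10 (adjusted p = 0.274), -0.05 ± 0.11 (adjusted p = 0.876) and 0.12 ± 0.09 (adjusted p = 0.398). No alternative processing or omitted library led to a call of Ltbr.

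RANKL was set against its decoy, and TNFR2 against TNFR1, as ratios of counts per kilobase within a library, which need no scaling between libraries. The Tnfsf11 to Tnfrsf11b ratio was 0.998, 0.28 and 0.151 in naive WT, 0.179, 0.0306 and 0.0332 in WT CAC and 0.336, 0.16 and 0.573 in Cldn2TG CAC mice. In naive WT and Cldn2TG CAC mice these ratios rest on few reads, Tnfsf11 at 2 to 19 and Tnfrsf11b at 9 to 55 counts. A few reads would move them. WT CAC mice 5 and 6 were the lowest of the 9, while mouse 4 lay among the other groups. The mean log2 ratio was lower by 2.62 in WT CAC than in naive WT mice and higher by 2.47 in Cldn2TG CAC than in WT CAC mice (two-sided exact permutation test, p = 0.2 for each, adjusted p = 0.24 over 6 tests). With 1 library left out these differences ranged from -3.45 (without WT CAC mouse 4) to -1.86 (without naive WT mouse 1) and from 2.02 (without WT CAC mouse 5) to 3.30 (without WT CAC mouse 4). Cldn2TG CAC and naive WT mice differed by -0.15 (exact permutation p = 1, adjusted p = 1).

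The Tnfrsf1b to Tnfrsf1a ratio was 0.274, 0.236 and 0.289 in naive WT, 0.284, 0.561 and 0.481 in WT CAC and 0.194, 0.231 and 0.157 in Cldn2TG CAC mice. The Cldn2TG CAC mice were below the other 6. The mean log2 ratio differed by -1.15 from WT CAC and by -0.47 from naive WT mice (exact permutation p = 0.1 for each, the smallest that 3 against 3 allows, adjusted p = 0.24). WT CAC and naive WT mice differed by 0.68 (exact permutation p = 0.2, adjusted p = 0.24), or by 0.48 to 0.97 with 1 library left out.

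**Figure D3:**
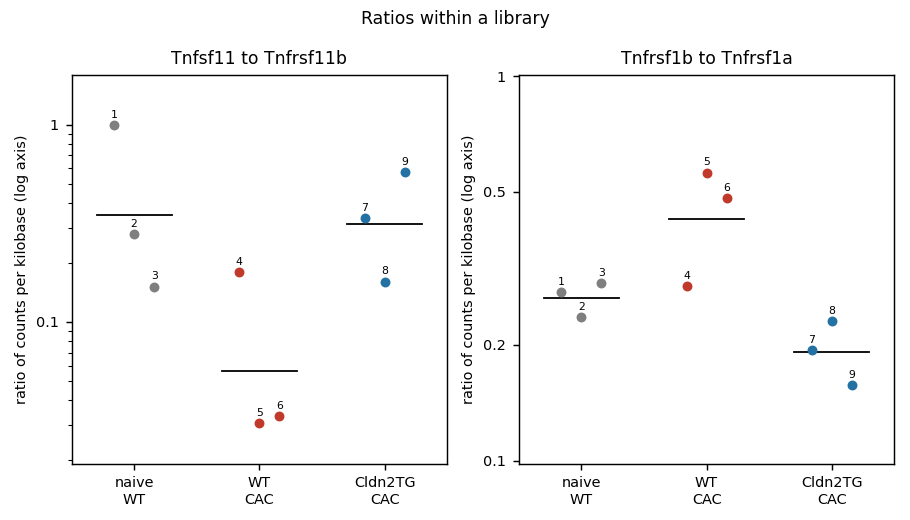
Ratios of counts per kilobase on log axes, with 1 point per mouse labeled by its number and a line at the group's geometric mean. The Tnfsf11 to Tnfrsf11b ratio is about 0.03 in WT CAC mice 5 and 6 and 0.151 or more in the other 7 mice, and the Tnfrsf1b to Tnfrsf1a ratio is 0.231 or less in the 3 Cldn2TG CAC mice.

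The signaling receptor of RANKL, RANK (Tnfrsf11a), was lower in both AOM-DSS groups than in naive WT mice. This gene was singled out after its values were seen. Tnfrsf11a was at 129.3, 134.8 and 134.4 CPM in naive WT, 75.5, 76.8 and 55 CPM in WT CAC and 96.1, 97.5 and 107.6 CPM in Cldn2TG CAC mice, and the 3 groups did not overlap. It was 1.91-fold lower in WT CAC (log2 fold change -0.94 ± 0.14, adjusted p = 0.0104) and 1.32-fold lower in Cldn2TG CAC (-0.40 ± 0.09, adjusted p = 0.0223) than in naive WT mice, and Cldn2TG CAC differed from WT CAC mice by 0.54 ± 0.15 (adjusted p = 0.064). The call of Tnfrsf11a in WT CAC mice was lost without naive WT mouse 2 (-0.93, adjusted p = 0.0579). That in Cldn2TG CAC mice was lost without any 1 of the 3 naive WT mice (adjusted p = 0.0553, 0.0649 and 0.086) or Cldn2TG CAC mouse 8 (0.0811), and with all 9 libraries in the fit.

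The family has 24 other receptors on the list used here. Of these 21 had enough counts to compare WT CAC with naive WT mice, and 7 were higher and 2 lower, where 8.04% and 6.92% of all genes were. Tnfrsf9 (4-1BB), Tnfrsf8 (CD30) and Tnfrsf4 (OX40), receptors of activated T cells, were higher by 4.13 ± 0.87, 3.60 ± 0.20 and 2.26 ± 0.34 on the log2 scale (adjusted p = 0.0245, 0.000443 and 0.0106). Tnfrsf19 (TROY), known from epithelial stem cells, was higher by 2.78 ± 0.74 (adjusted p = 0.0487). It was at 3.59, 11 and 27.8 CPM in WT CAC mice 4, 5 and 6 against 1.25 to 3.06 CPM in naive WT mice. With 1 library left out, the calls of Tnfrsf9 and Tnfrsf19 held only without WT CAC mouse 4, and that of Tnfrsf4 was lost without naive WT mouse 2. The call of Tnfrsf19 was also lost when scaled by library size, with no filter and on lane 2. Tnfrsf8 was at 1.1 to 1.54 CPM in naive WT, 16 to 16.9 CPM in WT CAC and 2.63 to 3.88 CPM in Cldn2TG CAC mice, so the groups lay apart and the WT CAC mice, mouse 4 included, were nearly equal. The lower genes were Tnfrsf11a and Ngfr (-1.56 ± 0.41, adjusted p = 0.0405), the neurotrophin receptor. The count of higher receptors was 9 without WT CAC mouse 4, 1, 2 and 3 without naive WT mouse 2, 3 and 1, and 3 without WT CAC mouse 5 or 6. Over all genes the calls in either direction were 4080, 135, 404, 631, 1245 and 1062 in these fits, in that order, against 2310. That of lower receptors was 2 without WT CAC mouse 4, 0 without naive WT mouse 2 and 1 without any other library, and the call of Ngfr held only without WT CAC mouse 4. Tnfrsf8 was called with any 1 library left out, at adjusted p = 0.00888 or less.

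In Cldn2TG CAC against WT CAC mice 9 of 21 other receptors were lower and none higher (DESeq2 called 1 higher), where 7.35% of all genes were lower. Tnfrsf19 (-3.83 ± 0.82, adjusted p = 0.0322), Tnfrsf9 (-3.75 ± 0.85, adjusted p = 0.0314), Tnfrsf23, a decoy receptor for TRAIL in the mouse (-2.59 ± 0.62, adjusted p = 0.0384), and Tnfrsf4 (-2.55 ± 0.39, adjusted p = 0.00907) had the largest differences among them. In the first comparison 4 of the 21, Tnfrsf9 among them, passed the filter only through the WT CAC libraries, where they are high. In the second 9 did, Tnfrsf9, Tnfrsf4, Tnfrsf19 and Tnfrsf23 among them, so these counts are a description of the genes that passed. The count of 9 held without WT CAC mouse 4, and fell to 3 and 4 without WT CAC mouse 5 and 6 and to 2, 1 and 1 without Cldn2TG CAC mouse 7, 8 and 9, and it was 3 on lane 2. Over all genes the calls ranged from 58 to 2894 with 1 library left out, against 1421. Of the 9, Tnfrsf8 (-2.25 ± 0.21, adjusted p = 0.00264) stayed called with any 1 library left out.

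Against naive WT mice, Cldn2TG CAC mice had 2 of 18 higher, Tnfrsf8 (1.35 ± 0.27, adjusted p = 0.0137) and Tnfrsf25 (1.16 ± 0.31, adjusted p = 0.0396), and 2 lower, Ngfr (-2.12 ± 0.35, adjusted p = 0.00691) and Tnfrsf11a, where 3.92% of all genes were higher and 6.07% lower. With 1 library left out the higher count was 0 (without Cldn2TG CAC mouse 8) to 2 and the lower count 1 to 3 (without Cldn2TG CAC mouse 9), and Ngfr was called in each of these fits. The call of Tnfrsf25 was lost without any 1 of the naive WT mice and without Cldn2TG CAC mouse 8 or 9. It was also lost when scaled by library size, with all 9 libraries in the fit and on lane 2. That of Tnfrsf8 was lost without Cldn2TG CAC mouse 8 and on lane 1. Of the 12 other ligands 4 had enough counts, and 1, Tnfsf9, the ligand of 4-1BB, was higher in WT CAC than in naive WT mice (2.37 ± 0.37, adjusted p = 0.0116), where 8.04% of all genes were. Tnfsf9 passed the filter through the WT CAC libraries, and its call was lost without naive WT mouse 2 or 3 (adjusted p = 0.0635 and 0.0554).

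**Figure D4:**
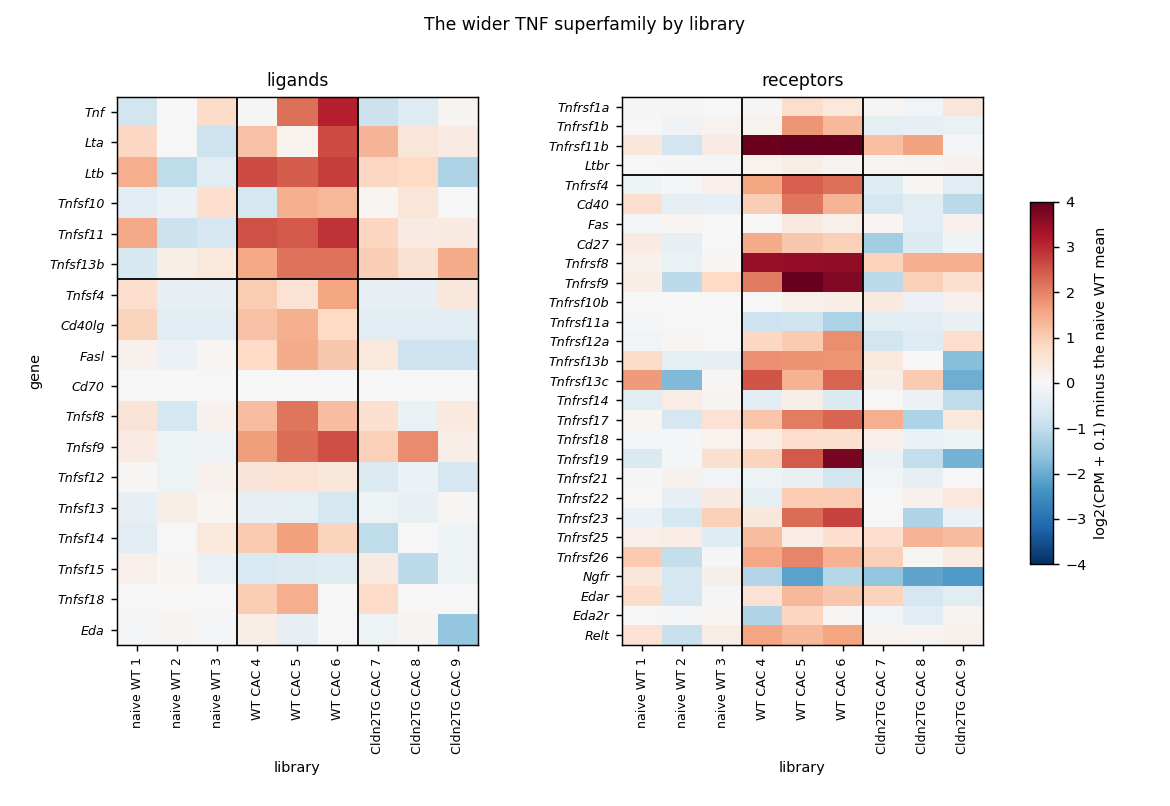
Heat map of log2(CPM + 0.1) minus the naive WT mean for 18 ligands (left) and 28 receptors (right), 1 column per mouse, with the 10 genes of the report above the horizontal line and colors limited to 4 in either direction. Tnfrsf8 and Tnfrsf11b are dark in WT CAC mice 4 to 6, and Tnfrsf11a and Ngfr are below the naive mean in the 6 AOM-DSS mice.

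The components that carry the signal inside the cell were examined next. Of 36 adaptors, kinases, NF-κB subunits and regulators, 4 were higher in WT CAC than in naive WT mice and 1 was lower, shares near or below the 8.04% and 6.92% of all genes. They included the NF-κB inhibitor Nfkbie (1.32 ± 0.26, adjusted p = 0.0204), the necroptosis kinase Ripk3 (0.71 ± 0.17, adjusted p = 0.0312) and the noncanonical NF-κB kinase NIK (Map3k14, 0.62 ± 0.15, adjusted p = 0.0308), and Tnip1, a partner of A20, was lower (-0.66 ± 0.17, adjusted p = 0.0354). The count of higher genes was 7 without WT CAC mouse 4 and 0 or 1 without any other library. Over all genes 4080 were called without that mouse, against 2310 with all 6 libraries. Nfkbie was also the 1 gene of the 36 called in Cldn2TG CAC against WT CAC mice (-1.31 ± 0.26, adjusted p = 0.0182), and it was lower, where 7.35% of all genes were. This count was 6 lower and 1 higher without WT CAC mouse 4, 3 lower and 1 higher under DESeq2, 1 lower without WT CAC mouse 6 and 0 without any other library. In Cldn2TG CAC against naive WT mice 1 gene was called, the NF-κB inhibitor Nfkbia (-0.51 ± 0.11, adjusted p = 0.0181), which was lower, where 6.07% of all genes were, a call lost without naive WT mouse 3 or Cldn2TG CAC mouse 9 and with all 9 libraries in the fit (adjusted p = 0.13).

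A list of 16 genes that TNF or lymphotoxin are known to induce was examined, and 9 of them had enough counts. Icam1, an adhesion molecule for leukocytes, was at 5.23, 2.61 and 4.05 CPM in naive WT, 9.62, 33.9 and 39.5 CPM in WT CAC and 4.56, 5.19 and 3.15 CPM in Cldn2TG CAC mice. It was higher in each WT CAC mouse than in the other 6, with mouse 4 the lowest of its group, as for Tnf. In WT CAC against naive WT mice, 3 of the 9 were higher, where 8.04% of all genes were, namely Icam1 (2.81 ± 0.55, adjusted p = 0.0223), Tnfaip2 (1.84 ± 0.35, adjusted p = 0.0182) and the adhesion molecule Vcam1 (1.75 ± 0.39, adjusted p = 0.0277). That count was 6 without WT CAC mouse 4, 0 without naive WT mouse 2 or 3, and 2 and 1 without WT CAC mouse 5 and 6, and the call of Icam1 was lost without any 1 of the naive WT mice, without WT CAC mouse 6 and with no filter. In Cldn2TG CAC against WT CAC mice 5 were lower, where 7.35% of all genes were, among them Icam1 (-2.68 ± 0.52, adjusted p = 0.0245), Tnfaip2 (-2.48 ± 0.40, adjusted p = 0.0116), Vcam1 (-2.44 ± 0.26, adjusted p = 0.00426) and Cxcl13, the chemokine that draws B cells into follicles (-1.77 ± 0.30, adjusted p = 0.0118). The count of 5 became 10 without WT CAC mouse 4, when more genes passed the filter, 3 without WT CAC mouse 6 and 2, 1 and 1 without Cldn2TG CAC mouse 7, 8 and 9, with Vcam1 called in each of these fits and Icam1 only without mouse 4. No gene of this list was called by edgeR between Cldn2TG CAC and naive WT mice, and DESeq2 called 1. At an unadjusted p under 0.05 there were 3 of the 9, beside 3896 of 15013 genes.

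Markers of immune cells moved with these genes. The summed level of 8 T cell markers was 6.77 to 12.7 CPM in naive WT, 23.9 to 39.2 in WT CAC and 7.86 to 12.5 in Cldn2TG CAC mice, with 7 of 8 called in each of the comparisons that involve WT CAC mice, higher in the first and lower in the second, where 8.04% and 7.35% of all genes were. Of the 8, Cd8a, Cd3d and Cd3e in the first comparison and Cd2, Cd4, Cd3d and Cd3e in the second passed the filter only through the WT CAC libraries, so the counts are a description. The sum of 6 macrophage markers was 25.5 to 36.9, 59.6 to 148.1 and 19.9 to 34.6 CPM, with 5 of 6 called in each, and that of 4 plasma cell markers (1 of them the receptor Tnfrsf17) was 38.4 to 91.4, 199.4 to 437.6 and 23.8 to 100.5 CPM. Nearly all of the plasma cell sum was Jchain, at 36.7 to 87.9, 191.5 to 426.2 and 22.1 to 96.5 CPM, beside Mzb1 at 1.1 to 2.02, 6.14 to 8.43 and 0.513 to 2.76 CPM. The sum of 5 epithelial markers differed far less, at 10468.2 to 11236.1, 10531.0 to 12287.8 and 11608.1 to 13939.5 CPM, so the tissue had the epithelium its label implies. None of these markers was at 0 in every library. With 1 library left out, the T cell count of 7 ranged from 0 to 7 in the first and 0 to 8 in the second comparison and the macrophage count of 5 from 0 to 6 in both, each highest without WT CAC mouse 4. In the first comparison the T cell count was 0 without naive WT mouse 2 and the macrophage count 0 without any 1 of the naive WT mice, and in the second both were 0 without Cldn2TG CAC mouse 8 or 9.

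The neutrophil list was mixed, with Ly6g far above the other genes of the list in every library and not moving with them. Ly6g is therefore not read here as a level of neutrophils. Ly6g stood at 135.3 to 207.0 CPM in naive WT, 304.9 to 324.4 CPM in WT CAC and 302.8 to 347.9 CPM in Cldn2TG CAC mice. It was higher in WT CAC than in naive WT mice (0.82 ± 0.17, adjusted p = 0.0206, lost without naive WT mouse 2 or 3 or WT CAC mouse 5) and in Cldn2TG CAC than in naive WT mice (0.87 ± 0.15, adjusted p = 0.00881, held with any 1 library left out), and the groups given AOM-DSS differed by 0.04 ± 0.12 (adjusted p = 0.902). Others of the list had low counts outside WT CAC mice 5 and 6. S100a8 was at 0 to 0.258 CPM in naive WT, 0.572, 18.3 and 13.6 CPM in WT CAC and 0 to 0.201 CPM in Cldn2TG CAC mice, S100a9 at 0 to 0.301, then 0.78, 21.9 and 12.1, then 0.138 to 0.151 CPM, and the G-CSF receptor Csf3r at 0.0501 to 0.349, then 0.728, 6.85 and 1.56, then 0 to 0.138 CPM. WT CAC mice 5 and 6 thus stood far above mouse 4 for S100a8 and S100a9, mouse 5 alone did for Csf3r, and mouse 4 was above the other 6 mice for each. These 3 genes were called higher in WT CAC than in naive WT mice (adjusted p = 0.0327, 0.0342 and 0.041), and S100a9 and Csf3r lower in Cldn2TG CAC than in WT CAC mice (adjusted p = 0.0386 and 0.034), where S100a8 did not pass the filter. They passed the filter through the WT CAC libraries, and no call held with no filter (adjusted p = 0.0886 or more). With 1 library left out, the calls of the first comparison held only without WT CAC mouse 4. Those of the second were lost without Cldn2TG CAC mouse 7, 8 or 9, and that of S100a9 also without WT CAC mouse 5 or 6. The part of cell composition in the differences of the family was not tested.

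Single mice differed from their group in markers as well as in some of the 10 genes. WT CAC mouse 4 had a macrophage sum of 59.6 CPM against 145.3 and 148.1 in mice 5 and 6, and low neutrophil genes as given above, and it was also the lowest of the 3 in Tnf, Tnfsf10, Tnfrsf1b and Tnfrsf11b. The same mouse had a B cell sum of 56.9 CPM against 28.4 and 49 CPM, and Ltb and Tnfsf11 as high as in mice 5 and 6. Naive WT mouse 1 had a B cell sum of 34.6 CPM against 4.11 and 5.77 CPM in mice 2 and 3, beside the highest naive levels of Ltb, Tnfsf11 and Lta but the lowest of Tnf and Tnfsf13b. Cldn2TG CAC mouse 9 had the lowest B cell sum of its group, 3.15 CPM against 10.3 and 20.2 CPM, and the lowest Ltb. The match was incomplete, since WT CAC mouse 5 had the lowest B cell sum of its group with Ltb and Tnfsf11 close to those of mouse 4, and Cldn2TG CAC mouse 8 had a higher B cell sum than mouse 7 with Ltb at 2.72 against 2.76 CPM and Tnfsf11 at 0.352 against 0.553 CPM. None of this was tested. The B cell sums were 28.4 to 56.9 CPM in WT CAC and 3.15 to 20.2 CPM in Cldn2TG CAC mice, which did not overlap, while the naive WT range of 4.11 to 34.6 CPM overlapped both. Of 7 B cell markers none was called by edgeR in WT CAC against naive WT mice, where 8.04% of all genes were higher. At an unadjusted p under 0.05 there were 2, beside 5032 of 15437 genes, and DESeq2 called 2, beside 3220 genes. Without naive WT mouse 1, 6 were called higher, in a fit that called 631 genes. In Cldn2TG CAC against WT CAC mice 1 was called lower, Cd79a, where 7.35% of all genes were, a call that with 1 library left out held only without WT CAC mouse 4, while DESeq2 called all 7 lower. Cr2, Pax5 and Blk in the first of these comparisons, and these and Cd79b in the second, passed the filter only through the WT CAC libraries. The B cell counts are thus a description.

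M cell markers were also looked at because RANKL drives that cell type. Their summed level was 24.2 to 30.2 CPM in naive WT, 66.7 to 84 CPM in WT CAC and 16.8 to 28.6 CPM in Cldn2TG CAC mice, so that WT CAC mice lay above the other groups, as for Tnfsf11. The largest parts of the sum in WT CAC mice were Ccl9, Spib and Tnfaip2, at means of 27.3, 20.2 and 12.9 CPM. Gp2 was at a mean of 11.9 and Sox8 of 2.12 CPM, and a link of the sum to Tnfsf11 was not tested. Gp2, the M cell surface receptor, was at 1.1, 0.902 and 0.215 CPM in naive WT, 19.8, 9.44 and 6.46 CPM in WT CAC and 0.276, 3.17 and 0.586 CPM in Cldn2TG CAC mice. It was 16.3-fold higher in WT CAC than in naive WT mice (log2 fold change 4.02 ± 0.62, adjusted p = 0.0121), and its difference between Cldn2TG CAC and WT CAC mice was -3.06 ± 0.82 (adjusted p = 0.0632). The first call was lost without naive WT mouse 2 (4.20, adjusted p = 0.0651). The second difference was called without Cldn2TG CAC mouse 8 (-4.76, adjusted p = 0.0492), by DESeq2 (adjusted p = 0.0211), with all 9 libraries in the fit (0.0362) and on lane 1 (0.0329). Of the 5 M cell markers, 1 of which (Tnfaip2) is also among the TNF and lymphotoxin targets above, 3 were called higher in the first comparison (0 without naive WT mouse 2, 1 and 2 without naive WT mouse 1 and 3, and 5 under DESeq2) and 2 lower in the second (1 without Cldn2TG CAC mouse 9, and 4 under DESeq2), where 8.04% and 7.35% of all genes were. Gp2 and Sox8, 2 of the 5, passed the filter only through the WT CAC libraries in both comparisons, so the counts and the fold of Gp2 are a description.

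Stromal markers were mixed. The sum of 5 fibroblast markers was 151.1 to 214.5 CPM in naive WT, 228.8 to 607.3 CPM in WT CAC and 117.8 to 151.4 CPM in Cldn2TG CAC mice. In WT CAC mice 4, 5 and 6 it was 228.8, 607.3 and 284.0 CPM, beside Tnfrsf11b at 14.2, 77.7 and 98 CPM, and its part in the level of Tnfrsf11b was not tested. The sum of 4 smooth muscle markers was 2259.8 CPM in WT CAC mouse 4 against 817.3 and 929.5 CPM in mice 5 and 6, 1570.9 to 2851.4 CPM in naive WT mice and 729.6 to 1135.0 CPM in Cldn2TG CAC mice, which lay below the naive mice. Of the 4, Acta2 and Myh11 were called lower in Cldn2TG CAC than in naive WT mice (adjusted p = 0.00988 and 0.0224), where 6.07% of all genes were, and both calls were lost with all 9 libraries in the fit (adjusted p = 0.0577 and 0.163). That of Myh11 was also lost without naive WT mouse 1 or 3 or Cldn2TG CAC mouse 7. The 4 endothelial markers summed to 24.7 to 29, 22 to 32.3 and 11 to 14.4 CPM in the 3 groups, lower in Cldn2TG CAC mice. Of the 4, 3 were called lower in Cldn2TG CAC than in naive WT mice and 2 than in WT CAC mice, where 6.07% and 7.35% of all genes were. The call of Cdh5 against naive WT mice held with any 1 library left out, and each other call was lost without some library. Cldn2TG CAC mice also had the lowest Tnfrsf1b, and a link to the endothelial sum was not tested. The neutrophil list is not given as a sum because Ly6g would make up nearly all of it, while 5 of its 6 genes were at 0 in at least 1, and of 5 NK and innate lymphoid markers 4 were at 0 in at least 1 library.

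**Figure D5:**
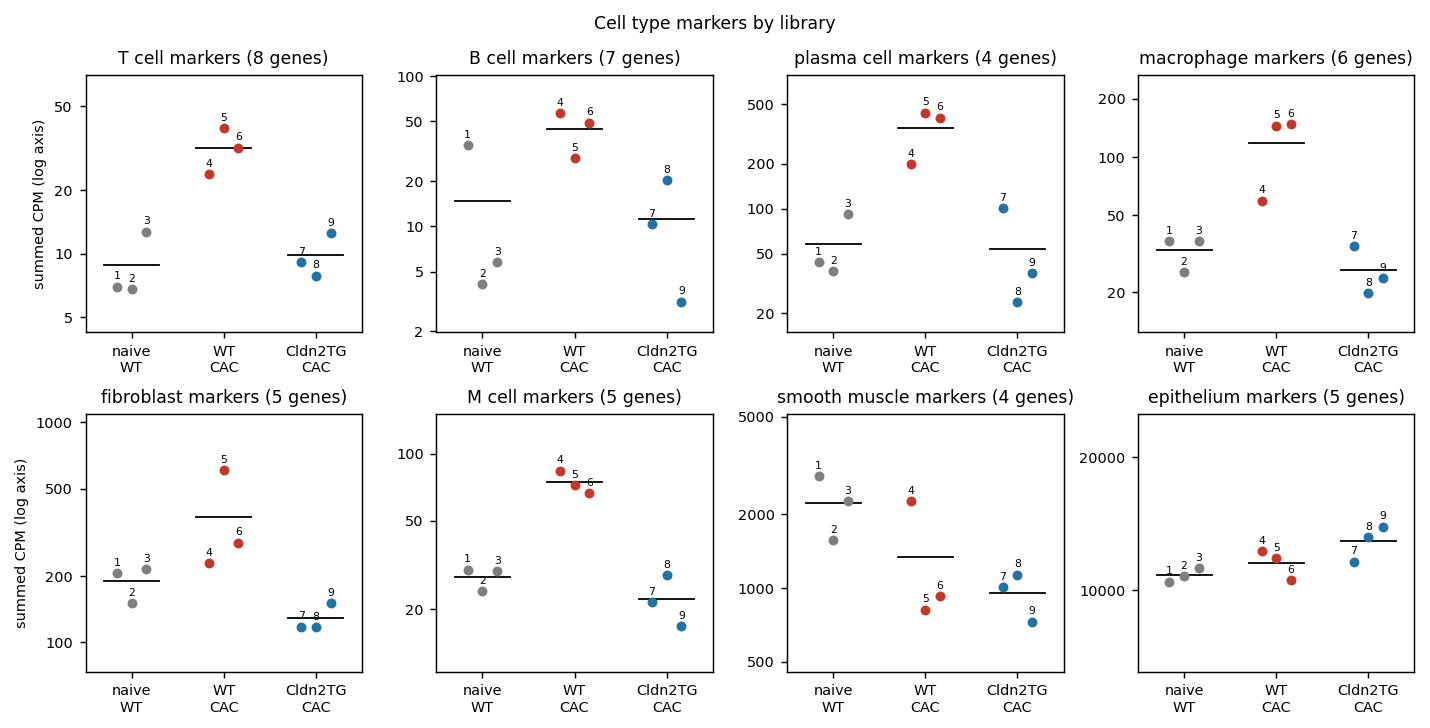
Summed CPM of 8 marker lists on log axes, 1 point per mouse labeled by its number, with a line at the group mean. WT CAC mice lie above the other mice for T cell, plasma cell, macrophage, fibroblast and M cell markers, naive WT mouse 1 is high for B cell markers, and WT CAC mouse 4 is low for macrophage and high for smooth muscle markers.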

How the data were processed

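RNA-Seq counts from the colon of 9 mice were used, 3 in each group, grouped by genotype and treatment labels. The authors counted reads on genes with featureCounts of the Subread package, and the deposited whole-number counts are not normalized. The study's methods name TopHat2 and the submitters' processing notes name HISAT2 as the aligner, so the aligner is uncertain. The build is GRCm38. Versions and strand setting are not given in the sources used here, but no exon of the 10 genes overlaps another gene's. The table held 2 lanes per library, which were added up, and 47224 of 47729 identifiers had a symbol. Counts per library were 14142711 to 22262546. A count of 0 allows a level of up to 3 counts, 0.135 to 0.212 CPM by library, for counting error only.

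Each comparison was fitted in edgeR 4.0.16 (R 4.3.3) on its 6 libraries with TMM, filterByExpr (minimum count 10, minimum total count 15) and a robust quasi-likelihood fit, tested two-sided, with Benjamini-Hochberg adjustment over all genes tested. The script was tested on simulated data. Within-library ratios used an exact permutation test in scipy 1.17.1. Alternatives were DESeq2 1.42.0, other scalings, no filter, all 9 libraries in 1 fit, single lanes and leaving out each library. Other family members, signaling genes, targets and markers came from fixed lists, of which at most the 4 called genes with the largest log2 fold change per comparison are named. Tnfrsf11a, Ngfr in the first comparison, Gp2, Spib, Ccl9, Sox8, the B cell genes, Jchain, Mzb1, Acta2, Myh11, Cdh5, the neutrophil genes and the second comparison's Tnfrsf8 were named after their values were seen. The 10 genes and the lists were chosen with earlier results of these data known.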

Additional observations from a re-analysis of the deposited data

How the results depend on the processing

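In the comparisons that involve WT CAC mice, the number of the 10 genes called depended on single libraries more than on scaling. In WT CAC against naive WT mice it was 3, with 6 under DESeq2 and 5 when all 9 libraries entered the fit, and 0 (without naive WT mouse 2) to 7 (without WT CAC mouse 4) when 1 library was left out. In Cldn2TG CAC against WT CAC mice it was 4, and 0 (without Cldn2TG CAC mouse 8) to 7 (without WT CAC mouse 4) with 1 library left out. In Cldn2TG CAC against naive WT mice it was 0, with 1 under DESeq2, scaling by library size or lane 1 only, and 2 without a filter, and it was 0 with any library left out. Over all genes the calls ranged from 135 to 4080, 58 to 2894 and 525 to 1383 in the 3 comparisons when 1 library was left out, in the same order. They were 2136 in the second comparison with all 9 libraries in the fit, and 2567 without a filter and 445 with all 9 libraries in the third. A group left with 2 libraries gives fewer residual degrees of freedom, and calls over all genes rose only without WT CAC mouse 4.

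In the comparisons that involve WT CAC mice no log2 fold change of the 10 genes changed direction under the alternatives run. Between Cldn2TG CAC and naive WT mice, where none was called, the log2 fold change of Ltb was -0.076 when scaled by library size and -0.23 on lane 2 and ranged from -0.38 to 1.20 with 1 library left out, that of Tnfsf10 from -0.075 to 0.55 and that of Tnfrsf1a from -0.031 to 0.28. Tnfsf11, tested there in 6 of the alternatives only, was at -0.31 without naive WT mouse 2 or 3 and at 0.12 to 0.26 in the other 4, and was called in none. The difference in the log2 Tnfsf11 to Tnfrsf11b ratio between these groups ranged from -0.75 to 0.61, being 0.61 without naive WT mouse 1 and 0.33 without Cldn2TG CAC mouse 8. The ratio could not be formed on lane 1 for comparisons with naive WT mice because Tnfsf11 had a library at 0 there. The cause of these shifts was not tested. Lta, at 1 to 21 counts, and Tnfsf11 in naive and Cldn2TG CAC mice, at 2 to 19 counts, are limited by depth. No paired analysis was possible because the replicate numbers are not shared between groups.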

Other observations

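For each of the 8 genes of the family with a mean of at least 1 CPM (all but Tnfsf11 and Lta), the 2 genes most like it over the 9 libraries were found by Pearson's r of log2 CPM among 13919 genes, as a description in which group differences take part. Tnfrsf11b was most like Prss22 (r = 0.993) and Adam8 (r = 0.992), Ltb most like Pla2g2d (0.988) and Map4k1 (0.985), and Tnf most like Gusb (0.981) and Ifnar2 (0.979). Tnfrsf1b was most like Ighv1-64, an immunoglobulin variable segment whose reads can be shared with near copies (0.989), and Dmbt1 (0.988). Tnfsf10 (Smarce1, 0.959), Tnfsf13b (Dusp7, 0.954), Tnfrsf1a (Nus1, 0.961) and Ltbr (Vps26a, 0.956) had somewhat lower values. With so many genes searched over 9 libraries, high values arise readily.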
